A study of Homo sapiens with 25 samples.

Results

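DND-41 is a human cell line derived from a T-cell acute lymphoblastic leukaemia. The comparison described here sets 2 libraries from cells kept in medium with 25% of the full histidine level (replicates 2 and 3) against 3 libraries from cells in full (100%) histidine (replicates 1 to 3), all collected on day 6. These 5 libraries, of 25 in the series, were chosen by their names and not by any measured value. The other groups used for comparison are 50% and 12.5% histidine on day 6 (3 libraries each) and 25% and 100% histidine on day 9 (3 libraries each). Levels of some genes are also shown for the 3 libraries titled as day 6 without histidine. The time label of 1 of them says day 9. The labels give no genetic change and no drug for any group, all came from the 1 cell line, and histidine level and day were the labelled differences. The labels do not say that replicates came from separate cultures, so each p-value reflects only how these particular samples scatter, and that scatter may be technical.

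Histidine is an essential amino acid that cells take up through membrane transporters and that HARS1 charges onto its tRNA. When charged tRNA runs short, the kinase GCN2 senses uncharged tRNA and raises translation of the transcription factor ATF4, whose targets include genes of amino acid synthesis and transport, and the Rag GTPases report amino acid supply to mTORC1. mTORC1 and MYC in turn promote ribosome production, nucleotide synthesis and, through SREBP factors, sterol and fatty acid synthesis in growing leukaemia cells.

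Each value below is a normalized count: the reads of a gene after the authors' scaling of each library, on one scale across the 25 libraries. The 5 libraries summed to 15308256 to 15861967 normalized counts each, which after that scaling do not show sequencing depth, and held between 14834 and 15609 genes at 10 or more. On the log2 scale, the 25% libraries correlated at 0.9676 with each other across genes, the 100% libraries at 0.9666 to 0.9713 among themselves, and pairs across the groups at 0.9570 to 0.9640. All 13 markers of the T lineage were in the table, 12 of them at 10 or more in every library of both groups (PTCRA was the exception), and their summed level was 58896 to 62288 in the 25% libraries and 61880.0 to 64489.8 in the 100% libraries. In these bulk libraries fewer cells of a type and less RNA per cell cannot be told apart.

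Of the libraries compared, 2 stood apart: summed keratin counts were 383 and 1406 in replicates 1 and 2 of the 100% group, against 3.44 in replicate 3 of that group and 0.794 and 1.72 in the 25% libraries. Over 15 epithelial markers the summed level was 28.9 to 39.5 in the 25% libraries, with 9 markers at 0 in both, and 51.2 to 1645 in the 100% libraries, and 0 of the 10 markers tested passed the threshold by limma (5 were lower at an unadjusted p under 0.05). The fit was therefore repeated without the 6 keratin-rich libraries of the series (sum over 100), 2 of them in this comparison, which leaves 2 libraries against 1. Markers of B cells summed to 19338 to 21278 in the 25% libraries and 15276 to 16925 in the 100% libraries, nearly all of it CD79A, which is also found in some T-cell leukaemias. Fibroblast and endothelial markers summed to 2721 to 2870.0 in the 25% libraries and 2063 to 2367 in the 100% libraries. Of these PDGFRB, the PDGF receptor beta, was higher at 1486 and 1489.7 in the 25% libraries and 1068, 1208 and 1062 in the 100% libraries (log2 change 0.42, adjusted p = 0.00139). Myeloid and erythroid markers summed to 19.7 to 20.9 in the 25% libraries and 14.3 to 28.4 in the 100% libraries. The part of these other-cell markers in the results was not tested.

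**Figure D1:**
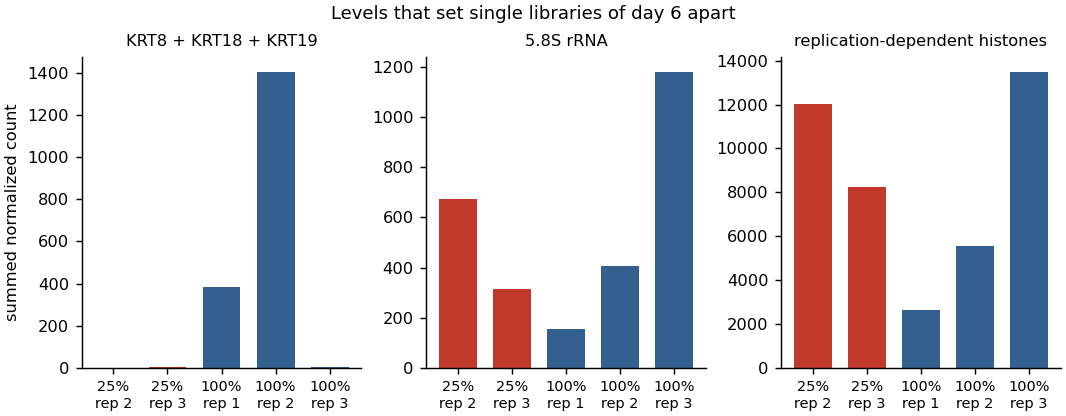
Normalized counts of 3 keratins summed (KRT8, KRT18 and KRT19), of 5.8S ribosomal RNA and of replication-dependent histones summed, one bar for each library, with 25% histidine in red and 100% in blue. Keratins stand at 383 and 1406 in replicates 1 and 2 of the 100% group, and 5.8S RNA and histones are highest in replicate 3 of that group, at 1181 and 13492.

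At 25% histidine, 25 of 39 mitosis genes, 10 of 22 quiescence genes and 9 of 19 NF-kB genes were called higher, and 12 of 22 sterol synthesis, 6 of 17 fatty acid synthesis and 16 of 36 ribosome assembly genes were called lower. The lists were chosen with earlier results of these data known, so their shares describe the values and are no independent support. Of 18799 genes tested, 2577 passed the threshold (adjusted p under 0.05, limma), which is 13.7% of the genes tested. Of these, 1277 (6.79%) were higher and 1300 (6.92%) lower at 25%, and the median change over all genes tested was 0.00 on the log2 scale. The called rises had a median of 0.58 (interquartile range 0.44 to 0.78) and the called falls a median of -0.59 (interquartile range -0.80 to -0.46), with 169 rises and 166 falls larger than 1. The values of the 2 groups did not overlap in 45% of all genes tested and in 99.7% of the called genes, so where such a gap is stated below for a called gene it describes the values and adds nothing to the call. The count of called genes was 1398 without replicate 2 of the 25% group, 1262 without replicate 3 of that group and 917 without the keratin-rich libraries, of which 877 were among the 2577 and had the same sign. These are called the 3 reduced fits below, and counts for a list in them are given in the order without the keratin-rich libraries, without replicate 2 and without replicate 3 of the 25% group.

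**Figure D2:**
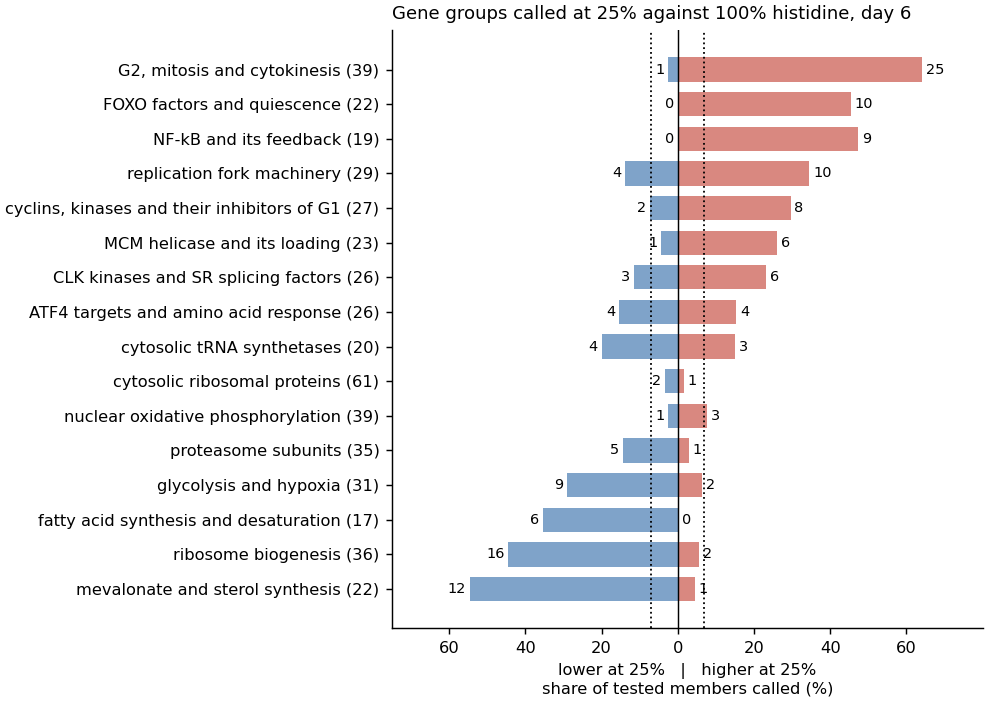
Share of each gene list called higher and lower at 25% histidine against 100% on day 6, with the number of genes tested in brackets and the share over all genes tested as dotted lines. The mitosis list has 25 of 39 genes higher and the sterol synthesis list 12 of 22 lower, against 6.79% and 6.92% of all genes. The lists were chosen with earlier results of these data known.

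The lowest adjusted p among the rises belonged to RGS1 (chr1:192575727-192580031 on GRCh38), a regulator that shortens signalling from chemokine receptors. RGS1 had 2206 and 2310.4 normalized counts in the 25% libraries, against 486, 481 and 521 in the 100% libraries (log2 change 2.18, SE 0.15, adjusted p = 4.21e-09 by limma). The groups lay far apart, and the values within each group lay close together. SAFB, a nuclear scaffold and RNA-binding protein, had 9618 and 9046 at 25% and 3934, 3859 and 3382 at 100% histidine (log2 change 1.33, adjusted p = 9.95e-09). POU2AF1, a lymphoid coactivator of octamer-binding factors, had 1436 and 1444 at 25% and 629.8, 707 and 617 at 100% (log2 change 1.15, adjusted p = 6.91e-08). Low genes gave some of the largest rises, among them MC1R, the melanocortin receptor, at 141 and 169 in the 25% libraries and 26.5, 40.7 and 36 in the 100% libraries (log2 change 2.16). TMEM198 was at 266 and 313 in the 25% libraries and 84.4, 97.8 and 67 in the 100% libraries (log2 change 1.80). TRBV6-2, a variable segment of the T-cell receptor beta chain, had 1246 and 1134 at 25% and 278, 306 and 312 at 100% (log2 change 1.99, adjusted p = 6.91e-08). Its reads may be shared with near-identical segments, so its level is uncertain.

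Among the falls, CISH, a feedback inhibitor of cytokine signalling through STAT5, had 6786 and 6750.3 normalized counts at 25% histidine and 12321, 12154 and 12792 at 100% (log2 change -0.88, SE 0.08, adjusted p = 3.82e-07). CDC37, the cochaperone that brings kinases to HSP90, had 1731 and 1608 in the 25% libraries and 3371, 3149 and 2920.0 in the 100% libraries (log2 change -0.91). PTPRU, a receptor tyrosine phosphatase, had 1338 and 1169 at 25% and 2616, 2508 and 2471 at 100% (log2 change -1.02). No overlap between groups was a condition for naming these 3 genes. NIPSNAP1, a mitochondrial protein, lay at 1222 and 1237 in the 25% libraries and 2393, 2412 and 2455 in the 100% libraries (log2 change -0.98). Some of the largest falls were in genes of low level. UNC5B, a netrin receptor, had 43.6 and 50.3 at 25% and 223, 159 and 155 at 100% (log2 change -1.89), and CDR2L had 10.3 and 11.3 at 25% and 51.9, 52.3 and 69.7 at 100% (log2 change -2.31). On this scale, with 1 added to each value, the change of such low genes is understated.

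**Figure D3:**
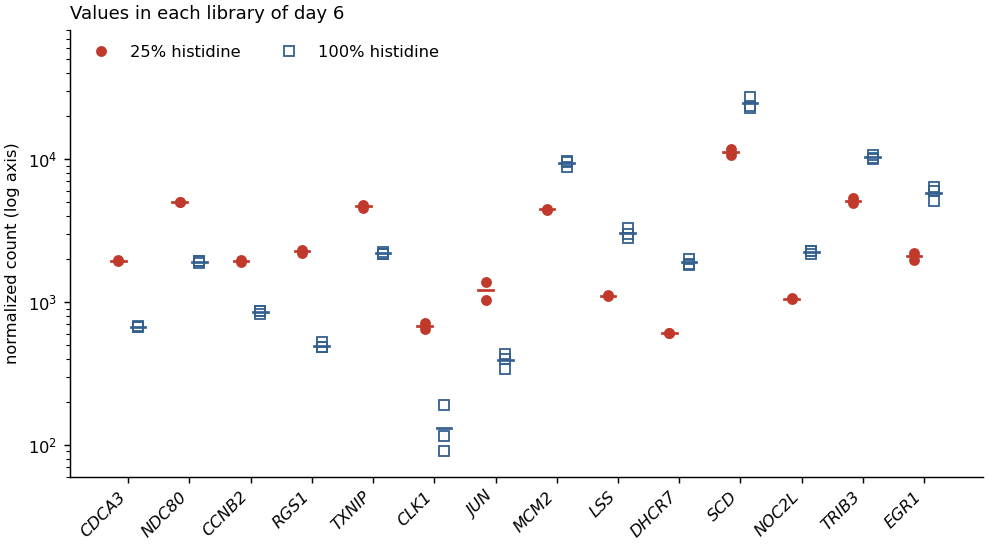
Normalized counts on a log axis of 14 called genes, one point for each library and a line for each mean, with 25% histidine (filled) left of 100% histidine (open) on day 6. The 2 points at 25% lie above the 3 points at 100% from CDCA3 to JUN and below them from MCM2 to EGR1, a gap that 99.7% of called genes show and that the choice of called genes fixed.

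Of 39 genes of G2, mitosis and cytokinesis tested, 25 were higher, 1 was lower and 13 did not pass, with a median log2 change of 0.51 where the median of all genes was 0.00. CDCA3 (chr12:6844793-6852066), a trigger of mitotic entry that was named for its low p and not as a list member, had 1948 and 1955 normalized counts at 25% histidine and 672, 679 and 668 at 100% (log2 change 1.53, SE 0.11, adjusted p = 9.46e-09). NDC80 (chr18:2571511-2616635), the kinetochore protein that holds microtubules, had 5034 and 5002 at 25% and 1924, 1949.7 and 1866 at 100% (log2 change 1.39, SE 0.10, adjusted p = 1.01e-08). Both genes were far higher in each 25% library than in any 100% library, and the 25% libraries differed little between themselves. CDC25C, the phosphatase that activates CDK1, had 594 and 591 in the 25% libraries and 216, 257 and 269.6 in the 100% libraries (log2 change 1.26). CCNB2, a B-type cyclin, had 1971 and 1919.5 at 25% and 871, 828 and 865 at 100% (log2 change 1.19). ANLN, the anillin of the cleavage furrow, had 2065 and 1975 at 25% and 1079, 1065 and 1036 at 100% (log2 change 0.93). The spindle proteins NUSAP1 and TPX2 were higher by 0.97 and 0.79 on the log2 scale, and CDCA2, a phosphatase adaptor of mitotic chromatin, by 1.08. The mitotic kinase PLK1, chosen after its values were seen, had 5948 and 5348 in the 25% libraries and 2676, 2887 and 3004 in the 100% libraries (log2 change 0.98, adjusted p = 0.000181). AURKB, also chosen after its values were seen because it was the 1 member that fell, is the kinase of the chromosomal passenger complex and had 2126 and 2102 at 25% and 3772, 3679.8 and 3761 at 100% (log2 change -0.82, adjusted p = 0.000417). MKI67, the proliferation antigen, had 28487 and 28738 at 25% and 22925, 24195 and 20249.7 at 100%, a difference that did not pass (log2 change 0.35, 95% interval 0.02 to 0.69, adjusted p = 0.166). In the 3 reduced fits 18, 19 and 17 genes of the list were higher and 1 lower each time.

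Many promoters of this class carry a CHR element (cell cycle genes homology region), through which the DREAM complex and MYB-MuvB regulate mitotic genes, often next to CCAAT boxes bound by NF-Y. The 250 bases before the gene start of CCNB2, PLK1 and ANLN are printed because they hold the element in genes that rose. They come from RefSeq on GRCh38.p14 and lie at chr15:59104896-59105145 on the plus strand, chr16:23678639-23678888 on the plus strand and chr7:36389612-36389861 on the plus strand. Capitals mark TTTGAA, the CHR core, and CCAAT, each on either strand, and the 2 motifs do not overlap.

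CCNB2: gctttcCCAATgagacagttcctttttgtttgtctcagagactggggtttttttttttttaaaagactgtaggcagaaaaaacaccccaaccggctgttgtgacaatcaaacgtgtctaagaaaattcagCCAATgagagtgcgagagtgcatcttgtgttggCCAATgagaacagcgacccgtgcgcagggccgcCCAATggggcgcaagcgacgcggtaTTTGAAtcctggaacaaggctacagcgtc

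PLK1: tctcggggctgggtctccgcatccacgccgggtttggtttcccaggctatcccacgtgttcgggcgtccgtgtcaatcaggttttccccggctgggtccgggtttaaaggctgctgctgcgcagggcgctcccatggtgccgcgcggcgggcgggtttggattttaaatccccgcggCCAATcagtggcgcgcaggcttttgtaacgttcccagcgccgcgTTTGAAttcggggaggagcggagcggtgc

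ANLN: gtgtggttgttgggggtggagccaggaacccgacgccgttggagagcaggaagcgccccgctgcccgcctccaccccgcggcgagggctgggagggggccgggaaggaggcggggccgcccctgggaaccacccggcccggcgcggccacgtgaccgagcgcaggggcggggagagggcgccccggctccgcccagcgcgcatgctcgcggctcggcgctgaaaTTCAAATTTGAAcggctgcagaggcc

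In CCNB2 the CHR core began 29 bases before the start, with CCAAT at 54, 87, 120 and 244, and in PLK1 the CHR core also began at 29, with CCAAT at 73. ANLN held the core at 20 and 26 bases and no CCAAT in the window. Over the mitosis list, 17 of the 33 promoters found in the table held TTTGAA (51.5%), against 9.09% of the promoters of genes tested and 13.6% of all 27305 promoters. CCAAT stood in 75.8% of the mitosis promoters, 35.2% of those of genes tested and 33% of all. TTTGAA was in 11.7% of the promoters of genes called higher and in 6.22% of those called lower. A match describes the letters in the window and not binding.

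**Figure D4:**
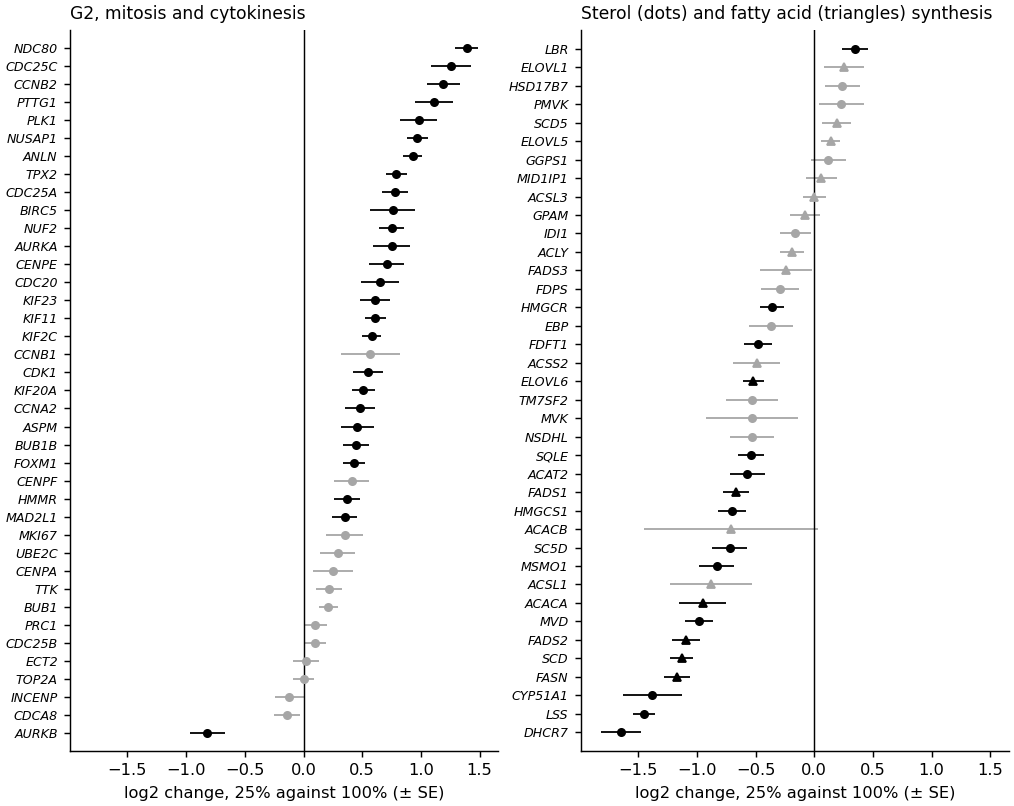
Log2 change at 25% against 100% histidine with its SE for genes of the mitosis list and of the sterol (dots) and fatty acid (triangles) synthesis lists, in black where the adjusted p passed and grey where it did not. Of the black points, 25 of 26 lie right of 0 for mitosis (AURKB lies left), and 11 of the 12 shown for sterol synthesis lie left of 0 (LBR lies right).

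Genes of DNA replication moved in both directions. Among 23 genes of the MCM helicase and its loading, 6 were higher and 1 lower (median log2 change 0.13), and among 29 genes of the replication fork, 10 were higher and 4 lower (median 0.23). The reduced fits had 3, 5 and 4 helicase genes higher, and 4, 3 and 2 fork genes higher with 1, 1 and 2 lower. Without replicate 2 or replicate 3 of the 100% group 5 fork genes were higher, and without replicate 1 of that group 2 were lower. CDC6, which loads the helicase, had 3987 and 3828 normalized counts at 25% histidine and 1903, 1823 and 1989.6 at 100% (log2 change 1.04, adjusted p = 3.38e-06). CDC45, a subunit of the active helicase, had 3180.1 and 3213 at 25% and 1934, 2026 and 2029 at 100% (log2 change 0.68, adjusted p = 4.33e-05). GMNN, the inhibitor of relicensing, rose by 0.76 on the log2 scale, and RFC4, a clamp loader subunit, by 0.80. MCM2 (chr3:127598223-127622436), a subunit of the helicase ring, was the 1 gene of the helicase list that fell, with 4413 and 4486 at 25% and 9748, 8824 and 9583 at 100% (log2 change -1.08, SE 0.11, adjusted p = 7.29e-07). TIMELESS, a fork protection protein, was also lower, at 3536 and 3016 in the 25% libraries and 5175, 4972 and 4698 in the 100% libraries (log2 change -0.60).

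Genes of nucleotide synthesis also moved in both directions. Of 19 deoxynucleotide and thymidylate genes 3 were higher and 5 lower, and of 15 purine synthesis genes 1 was higher and 4 lower, with 1, 3 and 4 of the first list and 1, 1 and 2 of the second lower in the reduced fits and 1 of each list higher in every one of them. Without replicate 1 or replicate 2 of the 100% group 1 gene of the first list was higher, and without replicate 3 of that group 2 of the second were lower. CAD, the enzyme of the first steps of pyrimidine synthesis, had 2879.8 and 2776 at 25% histidine and 4669, 4952 and 4294 at 100% (log2 change -0.71, adjusted p = 2.82e-06). PRPS2, which makes phosphoribosyl pyrophosphate, had 1639.6 and 1643 at 25% and 2718, 2367 and 2693 at 100%, and fell by 0.66 on the log2 scale. TYMS, thymidylate synthase, had 7148 and 6934 at 25% and 10736, 10458 and 11150.4 at 100% (log2 change -0.61, adjusted p = 0.00318), a call that ended without the keratin-rich libraries (adjusted p = 0.0659). DCK, the kinase that salvages deoxycytidine, was higher, with 2946 and 2886 at 25% and 1527, 1646 and 1860.3 at 100% (log2 change 0.80). Repair genes of homologous recombination and the Fanconi pathway had 3 of 29 higher and 3 lower (2, 2 and 3 higher, and 0, 1 and 3 lower by limma in the reduced fits, with 3 lower at an unadjusted p under 0.05 in the first). FANCI rose by 0.78 and the exonuclease EXO1 by 0.68. Of 27 cyclins, kinases and inhibitors of G1, 8 were higher and 2 lower. In the reduced fits 2, 4 and 2 were higher and 0 lower by limma each time (1, 2 and 2 lower at an unadjusted p under 0.05), and without replicates 1, 2 and 3 of the 100% group in turn 7, 5 and 6 were higher and 0, 1 and 1 lower (2 lower at an unadjusted p under 0.05 without replicate 1). Among those higher was E2F8, a repressor E2F, at 1337 and 1322 in the 25% libraries and 661, 679 and 624 in the 100% libraries (log2 change 1.02). E2F2, an activator E2F, rose by 0.47. CDKN1A, the p21 inhibitor, had 479 and 467 at 25% and 645, 571 and 627 at 100% and did not pass (log2 change -0.37, adjusted p = 0.103). Among 19 p53 targets 2 were higher and 2 lower (1, 2 and 1 higher, and 0, 1 and 0 lower by limma in the reduced fits, with 0, 2 and 2 lower at an unadjusted p under 0.05), with GADD45A, a growth arrest and DNA damage gene, at 1649 and 1598 at 25% and 888, 746 and 798 at 100% (log2 change 1.00, adjusted p = 2.63e-06).

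Of 22 genes tested in the mevalonate and sterol pathway, 12 were lower, 1 was higher and 9 did not pass, with a median log2 change of -0.53. In the reduced fits 6, 11 and 9 were lower. LSS (chr21:46188141-46228824), lanosterol synthase, had 1101 and 1118 normalized counts at 25% histidine, against 3295, 3013 and 2808 at 100% (log2 change -1.45, SE 0.09, adjusted p = 2.89e-09), the lowest adjusted p of all genes tested. DHCR7 (chr11:71428193-71452868), which makes cholesterol from 7-dehydrocholesterol, had 608 and 602 at 25% and 2009, 1830.2 and 1849 at 100% (log2 change -1.65, SE 0.17, adjusted p = 1.1e-06). For both enzymes the 25% libraries lay close together and far below the lowest 100% library. MVD, mevalonate diphosphate decarboxylase, had 670.3 and 630.0 at 25% and 1297, 1339.8 and 1215 at 100% (log2 change -0.98). CYP51A1, the lanosterol demethylase, had 178 and 139 at 25% and 452, 413 and 368 at 100% (log2 change -1.38, adjusted p = 0.000522). HMGCS1, the HMG-CoA synthase at the head of the pathway, had 1865 and 1788 at 25% and 3486, 2771 and 2700.2 at 100% (log2 change -0.70, adjusted p = 0.000302). The calls of CYP51A1 and HMGCS1 ended without the keratin-rich libraries (adjusted p = 0.067 and 0.0588). LBR, chosen after its values were seen as the 1 member that rose, is a sterol reductase and an inner nuclear membrane protein and had 6791 and 6609.8 at 25% and 5413, 5194 and 5179 at 100% (log2 change 0.35, adjusted p = 0.029). Its call ended without any of 4 single libraries: 100% replicate 2 or 3 (adjusted p = 0.073 and 0.0725) and 25% replicate 2 or 3 (adjusted p = 0.169 and 0.119). It also ended without the keratin-rich libraries (0.185) and without a mean-variance trend (0.0573). In the uptake and sensing list of 18 genes, 1 was higher and 4 lower (2, 3 and 2 lower in the reduced fits, and 0 higher by limma in each, where 1 was higher at an unadjusted p under 0.05). INSIG1, which retains the SREBP chaperone, had 2720.2 and 2445 at 25% and 3798, 3451 and 3699 at 100% (log2 change -0.50, adjusted p = 0.00219; 0.0631 without replicate 3 of the 25% group).

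Of 17 enzymes of fatty acid synthesis tested, 6 were lower and 0 higher by limma (0 higher also at an unadjusted p under 0.05), with a median log2 change of -0.49, and 5, 6 and 6 were lower in the reduced fits. SCD (chr10:100347124-100364834), the stearoyl-CoA desaturase, had 11869 and 10632 normalized counts at 25% and 27094, 23734 and 22876 at 100% (log2 change -1.13, SE 0.10, adjusted p = 9.49e-08). FASN, fatty acid synthase, had 3763 and 3486 at 25% and 8798, 8088 and 7536 at 100% (log2 change -1.17). FADS2, the delta-6 desaturase, had 6488 and 5613 at 25% and 14200.5, 12278 and 12274 at 100% (log2 change -1.09), and the elongase ELOVL6 fell by 0.52.

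SREBP factors bind sterol response elements beside CCAAT boxes in promoters of this pathway. The windows of DHCR7 and MVD, at chr11:71448394-71448643 and chr16:88663092-88663341, both on the minus strand and printed 5′ to 3′ along the gene, are shown since both genes fell and hold several CCAAT boxes, which are in capitals. CACCCCAC, the element's core searched here on both strands, was in neither.

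DHCR7: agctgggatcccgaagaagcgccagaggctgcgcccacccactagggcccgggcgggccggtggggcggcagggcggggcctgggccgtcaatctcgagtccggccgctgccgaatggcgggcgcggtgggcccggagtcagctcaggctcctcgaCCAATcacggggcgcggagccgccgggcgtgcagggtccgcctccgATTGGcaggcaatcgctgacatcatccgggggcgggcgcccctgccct

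MVD: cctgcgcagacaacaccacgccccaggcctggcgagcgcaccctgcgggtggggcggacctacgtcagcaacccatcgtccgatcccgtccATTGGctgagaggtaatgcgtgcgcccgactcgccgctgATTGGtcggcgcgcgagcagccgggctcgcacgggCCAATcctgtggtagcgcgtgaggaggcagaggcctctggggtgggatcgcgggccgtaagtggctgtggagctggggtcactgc

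Starts here are those of RefSeq, which lie inside the gene spans of GENCODE 29. Of these spans only that of DHCR7 is printed above. The distance is 4475 bases in DHCR7, whose GENCODE span begins farther upstream, 70 in MVD, 68 in CCNB2, 1233 in PLK1 and 56 in ANLN. In DHCR7 the boxes began 48 and 94 bases before the RefSeq start, and in MVD at 85, 120 and 159. CCAAT was in 12 of the 17 sterol synthesis promoters found (70.6%), against 35.2% of the promoters of genes tested. It was in 34.4% of the promoters of all genes called lower and in 41% of those called higher. CACCCCAC was in 0 of the 17, 2.2% of those of genes tested and 2.37% of all, which says that these letters are not in this window and nothing of the factor.

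Of 36 ribosome biogenesis genes, 16 were lower, 2 higher and 18 did not pass (median log2 change -0.42). Of 61 cytosolic ribosomal proteins, 2 were lower and 1 higher, a share of 4.92% beside the 13.7% of all genes, and 0 were called by limma in each reduced fit (2, 2 and 1 higher and as many lower at an unadjusted p under 0.05). With only the compared groups 6 ribosomal protein genes were higher and 7 lower by limma, where 3548 of 15970 genes were called. WDR43, a subunit of the small-subunit processome, had 566 and 574 normalized counts at 25% histidine and 1245, 1180.0 and 1231 at 100% (log2 change -1.09, SE 0.11, adjusted p = 5.69e-07). NOC2L, a nucleolar factor related to yeast Noc2, had 1048 and 1059.8 at 25% and 2263, 2262 and 2172 at 100% (log2 change -1.08). BOP1, of the large-subunit PeBoW complex, had 1615 and 1441 at 25% and 3715, 3042 and 3186 at 100% (log2 change -1.11). RRS1, which helps to bring 5S RNA into the large subunit, fell by 0.78. NOP56, a core protein of box C/D particles chosen after its values were seen as one of the 2 that rose, had 4949.6 and 4677 at 25% and 3479.9, 3024 and 3245 at 100% (log2 change 0.57, adjusted p = 0.000491). The list had 7, 11 and 11 genes lower in the reduced fits and 2, 2 and 1 higher. MYC, a driver of this programme, had 11197 and 10589 at 25% and 17231, 14638 and 15447 at 100% (log2 change -0.53, SE 0.09, adjusted p = 0.000201).

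Among 20 cytosolic tRNA synthetases 3 were higher and 4 lower (1 higher and 3 lower in each reduced fit). QARS1, the glutamine enzyme, had 2161 and 1944 at 25% and 3872, 3616 and 3793 at 100% (log2 change -0.87, adjusted p = 2.04e-05), and VARS1, the valine enzyme, fell by 0.78. TARS1, the threonine enzyme, was higher, at 5182 and 4866 in the 25% libraries and 3479, 3315 and 3305 in the 100% libraries (log2 change 0.58). Among 35 proteasome subunits 5 were lower and 1 higher, at a median of 0.06 (5 lower in each reduced fit, and a median of -0.05 in the first). The called share of the proteasome list was 17.1%, beside the 13.7% of all genes. PSMD2, a scaffold of the regulatory particle, had 2141 and 2204 at 25% and 5428, 5368 and 5217 at 100% (log2 change -1.30, SE 0.11, adjusted p = 6.91e-08). PSMD3, of the same particle, had 2330.2 and 1967 at 25% and 4645, 4152 and 4119 at 100% (log2 change -1.01). PSMB1, of the core particle, was higher at 2524 and 2281 in the 25% libraries and 1537, 1446 and 1587 in the 100% libraries (log2 change 0.66, adjusted p = 0.0394), a call that each single library left out ended (adjusted p between 0.0657 and 0.231), as did leaving out the keratin-rich libraries (0.307), the replicate block (0.0648) and no mean-variance trend (0.0837). Of 20 heat shock chaperones 3 were higher and 2 lower (2 higher and 1 lower in each reduced fit). HSPA4, a cytosolic exchange factor of the HSP70 system, rose by 0.68, and HSPA9, the mitochondrial HSP70, fell by 0.67.

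Genes that answer amino acid shortage through ATF4 moved in both directions. Of 26 tested, 4 were higher and 4 lower, at a median of -0.01. In each reduced fit 3 were lower and 0 higher by limma (5, 4 and 6 higher at an unadjusted p under 0.05), and without replicates 1, 2 and 3 of the 100% group in turn 2, 1 and 2 were higher. HARS1, the histidyl-tRNA synthetase, had 929 and 963 normalized counts at 25% histidine and 1128, 1059 and 949 at 100%, with overlapping groups (log2 change -0.14, 95% interval -0.35 to 0.07, adjusted p = 0.424). TRIB3, the pseudokinase that feeds back on ATF4, had 5339.7 and 4903 at 25% and 10247, 10111 and 10669 at 100% (log2 change -1.01, SE 0.12, adjusted p = 4.38e-06). DDIT3, which encodes CHOP, had 326 and 398 at 25% and 642, 667 and 599 at 100% (log2 change -0.82, adjusted p = 9.61e-05). ATF5, a related factor induced with ATF4, had 24774 and 24076 at 25% and 35563, 37928 and 34348 at 100% (log2 change -0.56), so that all 3 of these stress-response genes were lower in both 25% libraries. CHAC1, a glutathione-cleaving enzyme, went the other way, with 783 and 706 at 25% and 441, 451 and 524 at 100% (log2 change 0.66, adjusted p = 0.0222). Its call ended without any of 4 single libraries: 100% replicate 1 or 2 (adjusted p = 0.0721 and 0.0634) and 25% replicate 2 or 3 (adjusted p = 0.173 and 0.0799), and also without the keratin-rich libraries (0.316). ASNS, asparagine synthetase and a standard ATF4 target, was low in both groups, at 9.08 and 19.7 in the 25% libraries and 15.6, 45 and 8.92 in the 100% libraries, and did not pass (log2 change -0.44, adjusted p = 0.794).

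The CHAC1 window is shown because it was the 1 promoter of the ATF4 list, of 23 found, that held TTGCATCA, the core of the C/EBP-ATF response element, on either strand (4.35%, against 0.437% of the promoters of genes tested and 0.82% of all). It lies at chr15:40953221-40953470 on the plus strand, with the element in capitals from 209 bases before the RefSeq start, which is 509 bases inside the GENCODE span.

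CHAC1: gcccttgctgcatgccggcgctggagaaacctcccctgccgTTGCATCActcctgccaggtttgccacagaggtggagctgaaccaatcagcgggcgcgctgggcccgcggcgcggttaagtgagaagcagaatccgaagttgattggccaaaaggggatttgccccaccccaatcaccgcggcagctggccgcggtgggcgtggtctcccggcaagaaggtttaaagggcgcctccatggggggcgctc

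Amino acid carriers changed in both directions, with 6 of 18 higher and 3 lower, and 0 calls by limma without the keratin-rich libraries (6 higher and 3 lower at an unadjusted p under 0.05; 3 higher in each fit without a 25% library, with 3 lower without replicate 2 and 1 without replicate 3). SLC7A11, the cystine carrier, had 1868 and 1998 normalized counts at 25% and 1230.3, 1229 and 1285 at 100% (log2 change 0.63, adjusted p = 0.00192). SLC43A1, a carrier of large neutral amino acids, had 1593 and 1534 at 25% and 975, 998 and 1039.6 at 100% (log2 change 0.64, adjusted p = 0.00137). SLC7A6, of the cationic and neutral exchanger y+L, was lower at 722 and 848 in the 25% libraries and 1319.8, 1378 and 1097 in the 100% libraries (log2 change -0.68, adjusted p = 0.000593). These 3 calls ended without the keratin-rich libraries (adjusted p = 0.105 for SLC7A11, 0.0605 for SLC43A1 and 0.0901 for SLC7A6). SETD3, which methylates a histidine of actin, had 1654 and 1611 at 25% and 1158, 1064 and 1078 at 100% (log2 change 0.57). In the amino acid sensing list of GATOR, Sestrin and Rag genes, 1 of 31 was higher and 1 lower, also in each reduced fit. That share of 6.45% at the adjusted threshold lies below the 13.7% of all genes. The higher one was RRAGD, a Rag GTPase, at 934 and 861 in the 25% libraries and 655, 595 and 591 in the 100% libraries (log2 change 0.55, adjusted p = 0.00162). The lower one was TSC2, the inhibitor of mTORC1, at 1193 and 969 in the 25% libraries and 1799.8, 2028 and 1859 in the 100% libraries (log2 change -0.82, adjusted p = 0.000535). At an unadjusted p under 0.05, 3 of the sensing list were higher and 9 lower, where 4845 of all 18799 genes passed. With only the compared groups 3 sensing genes were higher and 6 lower by limma, where 3548 of 15970 genes were called. The lysosome and autophagy list had 17.2% of its genes called, beside the 13.7% of all genes. Of 29 lysosome and autophagy genes 5 were higher and 0 lower by limma (2 lower at an unadjusted p under 0.05; 1, 3 and 2 higher in the reduced fits, and 3 without replicate 2 of the 100% group), among the 5 the autophagosome protein MAP1LC3B, which rose by 0.60.

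Of 22 genes tied to FOXO factors and quiescence, 10 rose and 0 fell by limma, also 0 at an unadjusted p under 0.05 (median log2 change 0.37). TXNIP (chr1:145992435-145996600), which limits glucose uptake, had 4816 and 4523 normalized counts at 25% histidine and 2168, 2166 and 2227 at 100% (log2 change 1.09, SE 0.13, adjusted p = 3.51e-06). CCNG2, an unconventional cyclin of arrested cells, had 1716 and 1716 at 25% and 819, 958 and 956 at 100% (log2 change 0.92). PIK3IP1, an inhibitor of PI3K in T cells, had 249.8 and 281 at 25% and 112, 131 and 74.3 at 100% (log2 change 1.35). BTG1, an antiproliferative factor of resting T cells, rose by 0.82, and ARRDC3, an arrestin related to TXNIP and counted in the MYC and MAX list, had 676 and 788 at 25% and 364, 333 and 297 at 100% (log2 change 1.14). The FOXO list had 7, 8 and 8 genes higher in the reduced fits.

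Of 19 NF-kB genes 9 were higher and 0 lower by limma (1 lower at an unadjusted p under 0.05), with a median log2 change of 0.41. RELB, the noncanonical subunit, had 531 and 445 at 25% and 228, 196 and 205 at 100% (log2 change 1.21, SE 0.20, adjusted p = 0.000176). RELA, the canonical subunit, had 2727 and 2593 at 25% and 1696, 1834 and 1744 at 100% (log2 change 0.60), and TNFAIP3, the A20 feedback enzyme, had 2949 and 2876 at 25% and 2259, 2085 and 2056 at 100% (log2 change 0.45). The NF-kB list had 4, 4 and 3 genes higher in the reduced fits, and without replicate 2 of the 100% group 5 were.

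Of 31 glycolysis and hypoxia genes, 9 were lower and 2 higher, although the median of the list was 0.11, and -0.12 without the keratin-rich libraries. In the reduced fits 4, 6 and 5 were lower and 2 higher each time. PFKL, a phosphofructokinase, had 3569.9 and 3195 normalized counts at 25% and 5845, 5566 and 5609 at 100% (log2 change -0.75, SE 0.09, adjusted p = 5.77e-06). The hexokinases HK1 and HK2 fell by 0.63 and 0.56. The 2 that rose were HIF1A, the oxygen-regulated subunit of HIF, at 2482 and 2358 in the 25% libraries and 1586, 1592 and 1511 in the 100% libraries, and the histone demethylase KDM3A, at 2831 and 2639 in the 25% libraries and 1698, 1662 and 1628 in the 100% libraries. Of 39 nuclear genes of oxidative phosphorylation 3 were higher and 1 lower, a share of 10.3% beside the 13.7% of all genes. The fall was called in each reduced fit, while 0, 1 and 0 rises were called by limma there (3, 4 and 4 higher at an unadjusted p under 0.05) and 1, 2 and 1 without replicates 1, 2 and 3 of the 100% group in turn. The 1 lower was CYC1, cytochrome c1, with 1455 and 1349 at 25% and 2875, 2611 and 3099 at 100% (log2 change -1.03, adjusted p = 0.000238). At an unadjusted p under 0.05, 9 of the nuclear list were higher and 4 lower, where 4845 of all 18799 genes passed. With only the compared groups 14 of that list were higher and 5 lower by limma, where 3548 of 15970 genes were called. By limma 0 of the 13 genes encoded in mitochondrial DNA passed (0 at an unadjusted p under 0.05).

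Few T-cell antigens passed the adjusted threshold. Of 34 receptor and surface antigens 1 was higher and 1 lower, also in each reduced fit, a share of 5.88% against 13.7% of all genes. At an unadjusted p under 0.05, 6 of the list were higher and 5 lower, where 4845 of all 18799 genes passed. With only the compared groups 6 were higher and 4 lower by limma, where 3548 of 15970 genes were called. CD7, an early T-lineage antigen, had 5483 and 5055 normalized counts at 25% and 9642, 8949 and 9846 at 100% (log2 change -0.85, SE 0.13, adjusted p = 7.41e-05). CD28, the costimulatory receptor, had 613 and 628 at 25% and 274, 306 and 219 at 100% (log2 change 1.23, SE 0.23, adjusted p = 0.000574). Among 27 T-lineage transcription factors 4 were higher and 3 lower. In the reduced fits 2, 2 and 3 were higher and 0 lower by limma each time (2, 4 and 2 lower at an unadjusted p under 0.05), and without replicates 1, 2 and 3 of the 100% group in turn 0, 1 and 1 were lower (3 at an unadjusted p under 0.05 without replicate 1). GATA3 had 2479 and 2262 in the 25% libraries and 1377, 1384 and 1364 in the 100% libraries (log2 change 0.78). Of 20 NOTCH genes 5 were higher and 0 lower by limma (2 lower at an unadjusted p under 0.05; 1, 3 and 4 higher in the reduced fits, with 1 lower without replicate 2 of the 25% group). RBPJ, the DNA-binding partner of NOTCH, had 1231 and 1159 at 25% and 799, 726 and 829 at 100% (log2 change 0.61, adjusted p = 0.000244; 0.0503 without the keratin-rich libraries), and the target TRIB2 rose by 0.61. HES1, the classical NOTCH target, had 1172 and 1128 at 25% and 1262, 1360.2 and 1309 at 100% and did not pass (log2 change -0.19, adjusted p = 0.267).

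Among 25 immediate-early genes 1 was higher and 3 lower (1 higher each time and 2, 2 and 1 lower in the reduced fits). That share of 16% lies close to the 13.7% of all genes, and the list median was 0.04 on the log2 scale. EGR1, a zinc finger factor induced by ERK signalling, had 2201 and 1974 at 25% and 5122, 5999.7 and 6369 at 100% (log2 change -1.48, SE 0.22, adjusted p = 7.19e-05). JUN, a subunit of AP-1, had 1035 and 1375 at 25% and 436, 339 and 402 at 100% (log2 change 1.61, SE 0.17, adjusted p = 9.67e-07), so that the 2 genes moved in opposite directions. In the list of CLK kinases and SR splicing factors 6 of 26 were higher and 3 lower (5, 4 and 5 higher, and 0, 3 and 2 lower by limma in the reduced fits, with 3 lower at an unadjusted p under 0.05 in the first). CLK1, a kinase of SR proteins, had 649 and 714 at 25% and 115, 191 and 89.8 at 100% (log2 change 2.43, SE 0.23, adjusted p = 2.82e-07). TRA2A and SRSF10, both SR-type splicing regulators, rose by 0.72 and 0.60. Of 21 surface, adhesion and matrix genes 6 were higher and 4 lower (2, 2 and 3 higher and as many lower in the reduced fits), with the matrix protease MMP9 at 64.2 and 56.2 in the 25% libraries and 10, 3.43 and 11 in the 100% libraries (log2 change 2.87, adjusted p = 0.000426).

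The remaining lists are small, and several had a larger called share than the 13.7% of all genes. Of 17 genes of histidine charging, carriage and breakdown, SETD3 and SLC43A1 among them, 4 (23.5%) were higher and 0 lower by limma (1 lower at an unadjusted p under 0.05; 1, 2 and 3 higher in the reduced fits). The MYC and MAX network had 3 of 13 higher and 1 lower (30.8% called), with 2 higher and 1 lower in each reduced fit. Translation factors had 4 of 31 higher and 4 lower (25.8% called), with 2, 3 and 2 higher and 2, 4 and 3 lower in the reduced fits. GIMAP GTPases had 2 of 6 higher (33.3%) and 0 lower by limma (0 lower at an unadjusted p under 0.05), with 1, 0 and 1 higher in the reduced fits (2, 3 and 4 at an unadjusted p under 0.05). Folding in the endoplasmic reticulum had 2 of 25 higher and 3 lower (20%), the BCL2 family 1 of 15 higher and 2 lower (20%), and NRF2 and glutathione genes 2 of 21 higher and 2 lower (19%). Host genes of snoRNAs had 2 of 20 higher and 1 lower (15%), interferon response genes 1 of 21 higher and 2 lower (14.3%), and serine and folate one-carbon metabolism 1 of 16 higher and 1 lower (12.5%). Without the keratin-rich libraries these last 6 lists held 0 calls by limma (at an unadjusted p under 0.05, 2 higher and 3 lower in the folding list, 1 and 3 in the BCL2 list, 4 and 4 in the NRF2 list, 2 and 1 in the snoRNA host list, 1 and 2 in the interferon list and 1 and 3 in the folate list). Without replicate 2 or replicate 3 of the 25% group each of the 6 held 1 to 3 calls by limma, except the folate list without replicate 3, which held 0 (1 higher and 2 lower at an unadjusted p under 0.05).

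Replication-dependent histones, whose mRNAs end without a poly(A) tail, spread more widely among the 100% libraries than among the 25% libraries. Their called share was 6.25%, beside the 13.7% of all genes. Of 48 tested, 3 were higher and 0 lower by limma (0 lower at an unadjusted p under 0.05), and the list median was 0.63, or -0.21 without the keratin-rich libraries and 0.11 without replicate 1 of the 100% group. In the reduced fits 0, 0 and 1 were higher by limma (0, 3 and 9 at an unadjusted p under 0.05), and without replicates 1, 2 and 3 of the 100% group in turn 0, 1 and 10 were (3 at an unadjusted p under 0.05 without replicate 1). H4C3, an H4 gene, had 6285 and 3853 normalized counts at 25% and 734, 2087 and 7519.6 at 100% histidine, with overlapping groups (log2 change 1.12, adjusted p = 0.396). The summed histone level was 12018 and 8236 in the 25% libraries and 2612, 5548 and 13492 in the 100% libraries. The level of 5.8S ribosomal RNA, which also lacks a tail, was 674 and 314 at 25% and 153, 406 and 1181 at 100%. It ranked the libraries as the histones did within each group, but not across the groups. With the 5.8S level as a covariate 5 histone genes were higher and 0 lower by limma (0 lower at an unadjusted p under 0.05), with a list median of 0.57. H3-3B, a replication-independent H3.3 gene with a polyadenylated mRNA, had 13638 and 13278 at 25% and 7908, 8511 and 8188 at 100% (log2 change 0.71, adjusted p = 6.85e-05).

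The other histidine levels of day 6 place these changes in a series, though every comparison uses the same pair of 25% libraries. Against 50% histidine, 2632 genes passed the threshold (14% of 18799), with 1351 higher (7.19%) and 1281 lower (6.81%) at 25%. Against 12.5% histidine, 3348 passed (17.8%), with 2017 higher (10.7%) and 1331 lower (7.08%) at 25%. That excess of rises depended on the scaling: the split was 1636 higher and 1759 lower with upper-quartile scaling, and 1691 and 1647 with quantile normalization. Without replicate 2 of the 25% group 1342 genes passed against 50% and 1375 against 12.5% histidine, without replicate 3 of that group 1363 and 1638, and without replicate 1 of the 12.5% group 1803 passed against 12.5%.

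The mitosis list of 39 had 20 genes higher at 25% histidine and 1 lower against 50% (median 0.42), and 35 higher and 0 lower by limma against 12.5% (0 lower also at an unadjusted p under 0.05; median 0.67). CDCA3 had 1948 and 1955 normalized counts at 25%, against 603, 739 and 619 at 50% (log2 change 1.58, adjusted p = 5.12e-09) and 746, 999 and 996 at 12.5% (log2 change 1.11, adjusted p = 1.95e-06). NDC80 had 5034 and 5002 at 25%, against 2042, 2208 and 1834 at 50% (log2 change 1.31, adjusted p = 2.8e-08) and 2336, 2831 and 3100.1 at 12.5% (log2 change 0.87, adjusted p = 1.11e-05). For both genes the 25% libraries were above every other library of day 6, including those without histidine, which lay at 384 to 412 for CDCA3 and at 964 to 1025 for NDC80. The time label of 1 of the libraries without histidine says day 9. Many replication genes differed from 12.5%, where 18 of 23 helicase genes and 21 of 29 fork genes were higher at 25% and 0 lower by limma (0 lower at an unadjusted p under 0.05 in either list). CDC45 had 3180.1 and 3213 at 25% and 1246, 1519.7 and 1652 at 12.5% (log2 change 1.13, adjusted p = 1.74e-07), and MCM2 had 4413 and 4486 at 25% and 2748, 3030.0 and 3132 at 12.5% (log2 change 0.59, adjusted p = 0.000732), although MCM2 at 25% was below both 50% (9175, 10462 and 7575; log2 change -1.01) and 100% histidine.

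**Figure D5:**
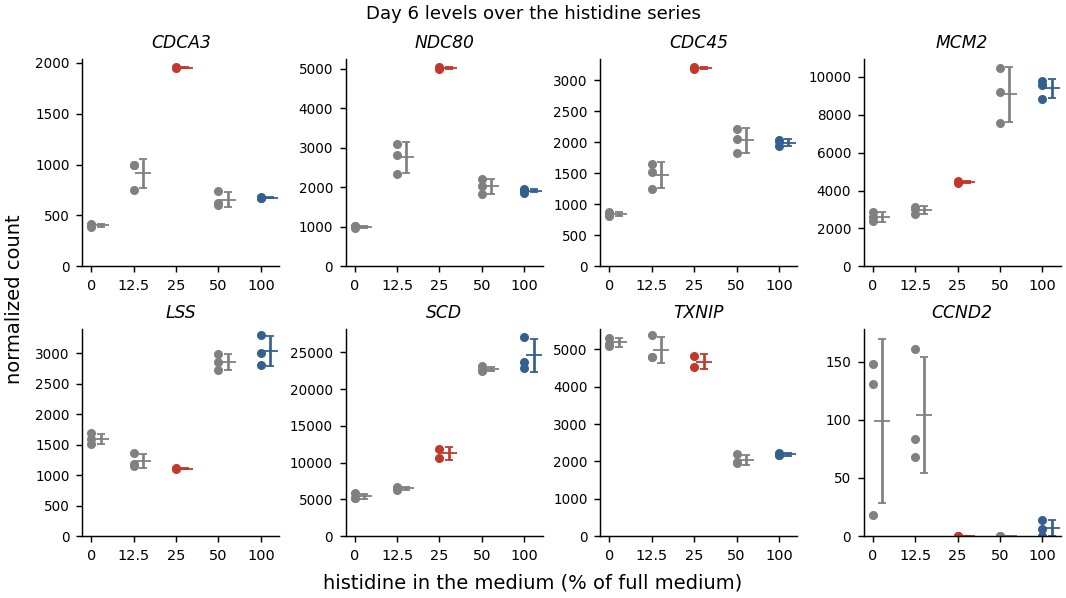
Normalized counts of 8 genes in every library of day 6, by histidine level from none to 100%, one dot for each library beside the group mean and SD (2 libraries at 25% in red, 3 at each other level). CDCA3, NDC80 and CDC45 are highest at 25%, LSS, SCD and MCM2 are lower at 25% than at 50% and 100%, and TXNIP is higher at 25% than at 50% and 100%.

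Of 22 sterol synthesis genes 1 was higher and 11 were lower at 25% histidine against 50% (median -0.48), and 12 were higher and 0 lower by limma against 12.5% (0 lower at an unadjusted p under 0.05; median 0.50). SCD had 11869 and 10632 at 25%, 23083, 22599.6 and 22473 at 50% (log2 change -1.02, adjusted p = 4.17e-07) and 6561, 6289 and 6657 at 12.5% (log2 change 0.79, adjusted p = 1.74e-05), so that the 25% libraries lay between the other 2 levels. LSS had 1101 and 1118 at 25% and 2983, 2722 and 2867 at 50% (log2 change -1.36, adjusted p = 5.12e-09), while its difference to the 1364, 1159 and 1181 at 12.5% did not pass (log2 change -0.15, adjusted p = 0.292). FADS2 and INSIG1 were higher than at 12.5% by 0.87 and 0.84 on the log2 scale. Of 36 ribosome biogenesis genes 14 were lower and 2 higher at 25% against each of these levels (median -0.30 against 12.5%), as WDR43 shows at 566 and 574 in the 25% libraries and 1042, 1009.6 and 997 in the 12.5% libraries (log2 change -0.83, adjusted p = 2.51e-05). The FOXO list had 11 higher against 50% (median 0.71) and 4 against 12.5% (median 0.25), with 0 lower by limma in either (1 lower at an unadjusted p under 0.05 in each). Without the keratin-rich libraries, which include 2 of the 50% group and none of the 12.5% group, the counts against 50% were 20 mitosis genes higher, 6 sterol genes lower, 5 ribosome biogenesis genes lower and 6 FOXO genes higher. ARRDC3 was lower than at 12.5%, with 676 and 788 at 25% and 1515, 1223 and 1300.0 at 12.5% (log2 change -0.88, adjusted p = 0.000126), and RELB was higher, with 531 and 445 at 25% and 189, 183 and 198 at 12.5% (log2 change 1.35, adjusted p = 8.38e-05).

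The rule for named genes added others in these comparisons. CCND2, a D-type cyclin, was listed at 0 in both 25% libraries and in the 3 libraries at 50%, and had 161, 83.2 and 67.7 normalized counts at 12.5% (adjusted p = 0.000774 for 25% against 12.5%). H4C3 had 6285 and 3853 at 25%, 453, 578 and 421 at 50% (log2 change 3.36, adjusted p = 0.00376) and 118, 162 and 182 at 12.5% (log2 change 5.02, adjusted p = 0.000116). Of 48 replication-dependent histones, 25 were higher against 50%, and 32 higher and 2 lower against 12.5%. Other RNAs without a tail were also higher in sum at 25% than at 50% and 12.5%. Small RNAs of this kind summed to 32851 and 27488 at 25%, 9637, 14038 and 8509 at 50%, and 4203, 3655 and 4608 at 12.5%. At 100% the sums were 7595, 12650.1 and 23986. Of 11 such RNAs tested, 1 was called higher by limma against 50% and 5 against 12.5%. The part of tailless RNA in the H4C3 difference was not tested. The call of H4C3 against 50% ended without replicate 2 of the 25% group (adjusted p = 0.0661), and with the 5.8S level as a covariate its log2 changes were 1.71 against 50% and 2.43 against 12.5%. Nuclear genes of oxidative phosphorylation had 25 of 39 higher and 0 lower by limma against 12.5% (0 lower at an unadjusted p under 0.05; median 0.57).

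The effect of 25% histidine was compared between day 6 and day 9 through the difference of the 2 effects, each taken against 100% of its own day. By limma 1 gene of 18799 (0.00532%) passed the threshold, and 1034 had an unadjusted p under 0.05. The gene was SRSF5 (chr14:69726900-69772005), an SR splicing factor. It had 6466 and 5193 normalized counts at 25% and 5461, 5557 and 5154 at 100% on day 6, and 1890.0, 1784 and 1598 at 25% and 3471, 3029.9 and 3937 at 100% on day 9. The effect was 0.10 on day 6 and -0.98 on day 9 on the log2 scale, a difference of 1.09 (SE 0.16, adjusted p = 0.011).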

How the data were processed

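Per the labels' protocols, total RNA of DND-41 cells grown at graded histidine went into strand-specific libraries. The deposited table holds a signal value for each gene and library, a normalized count that the authors made with DESeq2 1.44.0. The submitters' processing notes list it beside FastQC 0.11.9, kallisto 0.50.1 and the build GRCh38. Which annotation was used, and whether counting used strand, is not given in the sources used here. Of values under 20, 37.8% to 70.3% lay within 0.05 of a whole multiple of the best step for a library, so reads were not recovered and no count test was run. The scaling removes each library's depth, which is therefore unknown here, and it hides any change in how much RNA a cell holds.

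Groups follow the titles. Days are those on the samples, from which the series description differs. Genes at 10 or more in at least 2 libraries were kept (18799 of 31919), taken to log2 after adding 1, and modelled over all 25 libraries by limma 3.58.1 (R 4.3.3) with trended variances, 9 group means and 16 residual degrees of freedom. P-values were two-sided, with Benjamini-Hochberg adjustment over all genes tested and a threshold of 0.05. The fit was tested on simulated data first. There it recovered 26.9% of changes of 0.5 on the log2 scale, 52.2% of changes of 1 and 84.8% of changes of 2. Of its calls 4.39% were false. A gene that did not pass may therefore still have changed.

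Named genes were, for 25% against 100%, drawn from the 10 largest rises and falls and the 8 lowest adjusted p each way (called, higher group averaging at least 50, no overlap), up to 6 members of each list by adjusted p and a set always given (HARS1, ASNS, CHAC1, MYC, HES1, CDKN1A, MKI67 and others), and for the other comparisons from the 5 largest each way. The members and the 48 lists were chosen with earlier results of these data known. Lists are described by counts and medians, and some of their members are not reported here. Alternatives were other scalings, pseudocounts and filters, no trend, the compared groups alone, a replicate block, a 5.8S covariate, each library left out and the keratin-rich libraries left out. Where a 25% library is left out, the remaining one is assumed to vary like the other groups. Replicate numbers served only as names.

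Gene coordinates are those of GENCODE 29 (GRCh38), matched on symbol, which may not be the authors' annotation, and promoter windows come from RefSeq on GRCh38.p14. Python 3.11.15 and matplotlib 3.10.9 made the summaries and figures.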

Additional observations from a re-analysis of the deposited data

Results flagged for a closer look

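SRSF5, an SR protein that takes part in splice site choice, was flagged because the effect of 25% histidine differed between day 6 and day 9 by a test of the difference itself. On day 6 it had 6466 and 5193 normalized counts at 25% and 5461, 5557 and 5154 at 100% histidine, with overlapping groups. On day 9 it had 1890.0, 1784 and 1598 at 25% and 3471, 3029.9 and 3937 at 100% histidine, so that every 25% library was below every 100% library. The difference of the effects was 1.09 on the log2 scale (SE 0.16, adjusted p = 0.011, limma). The call ended without any of 4 single libraries, with adjusted p = 0.0618 without 100% replicate 3 of day 6, 0.06 without 100% replicate 3 of day 9, 0.125 without 25% replicate 2 of day 6 and 0.0645 without 25% replicate 3 of day 9. It also ended without a mean-variance trend (0.0744), with only the compared groups (0.06) and without the keratin-rich libraries (0.394).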

How the results depend on the processing

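Another pseudocount, filter or scaling, no trend, a 5.8S covariate, or leaving out a no-histidine library whose title says day 6 and whose time label says day 9, kept the 3 day-6 counts within 1.5 times of those reported. Leaving out 1 library at a time gave 1262 to 2067 genes for 25% against 100%, 1342 to 2591 against 50% and 1375 to 3884 against 12.5%. Without the keratin-rich libraries 917 genes passed against 100% and 1488 against 50%, and with only the compared groups 1558 passed against 50%. Against 100%, the fit of only the compared groups passed more genes, 3548 of 15970, beside the 2577 of 18799 reported, with a median SE of 0.153. The cause of these shifts was not tested. For day 6 minus day 9 the count was 2 with upper-quartile scaling or the 5.8S covariate, 3 with quantile normalization, and 0 by limma without a trend, with only the compared groups or without the keratin-rich libraries (1046, 1184 and 681 genes at an unadjusted p under 0.05), and 0 to 5 with 1 library left out. ASNS, not called in any of these fits, had a log2 change of -0.44 as reported but of 0.54 without the keratin-rich libraries, 0.17 without 100% replicate 2 and 0.08 without 25% replicate 2, in a range of -0.96 to 0.17 with 1 library left out. Of 106 named genes of the 25% and 100% comparison followed through the settings, ASNS included, all 106 kept sign and side of the threshold under the other scalings, pseudocounts and filters, and 10 lost the call without the keratin-rich libraries.

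Replicate numbers gave no sign of pairing: same-numbered libraries deviated from their group means with correlations of -0.027 and 0.042. The deviations of the 2 libraries at 25% mirror each other, so these values cannot settle whether the samples were paired. With the replicate block 2408 genes passed against 100%, 2449 against 50%, 2974 against 12.5% and 1 for the difference of days. With 2 libraries at 25%, and 1 when either is left out, the precision is limited: the median SE over genes was 0.244 on the log2 scale for 25% against 100%.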

Other observations

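Families of genes with a shared symbol stem, all chosen after their values were seen and some of them partly in the lists above, add further values for 25% against 100% histidine on day 6, beside the shares of 6.79% higher and 6.92% lower over all genes tested. Of 28 kinesins 9 were higher and 2 lower. KIF4A, a motor of the central spindle, had 2700.3 and 2626 normalized counts in the 25% libraries and 1645, 1633 and 1520.3 in the 100% libraries (log2 change 0.74, limma). Of 25 nucleoporins 7 were higher and 3 lower. NUP153, of the nuclear basket, had 5591 and 5275 in the 25% libraries and 2833, 2614 and 2628 in the 100% libraries (log2 change 1.01). NUP188, of the inner ring, had 1671 and 1561 in the 25% libraries and 2492, 2608 and 2401 in the 100% libraries (log2 change -0.63).

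Of 40 ubiquitin-conjugating enzymes 8 were higher and 1 lower. UBE2D3 had 11217 and 10605 in the 25% libraries and 4914, 4983 and 5318 in the 100% libraries (log2 change 1.11), and the related UBE2D2 had 4636 and 4339 in the 25% libraries and 2330.1, 1995 and 2192 in the 100% libraries (log2 change 1.05). Of 35 RNA polymerase subunits 3 were higher and 8 lower, with POLR1A, the catalytic subunit of polymerase I, at 1095 and 1085 in the 25% libraries and 1842, 1792 and 1684 in the 100% libraries (log2 change -0.70). Of 11 exosome subunits 1 was higher and 4 lower. Of 33 immunoglobulin heavy-chain variable segments 7 were higher and 0 lower by limma (0 lower at an unadjusted p under 0.05). IGHV1-3 had 636 and 582 in the 25% libraries and 273, 256 and 282 in the 100% libraries, and reads shared with near-identical segments make these levels uncertain.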
